A study of Mus musculus with 31 samples.

Results

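The subunits of the GABA-A receptor are encoded by a gene family, and 7 members are described here across cortex of 4 mouse genotypes: Gabra2, Gabra3, Gabra4 and Gabra5 (alpha subunits), Gabrb1 and Gabrb2 (beta subunits) and Gabrd (the delta subunit). They were chosen by name, out of 20436 gene symbols counted, and were followed in mRNA, in ribosome footprints and in the ratio of the latter to the former. All 7 had enough counts to be tested in both assays. The study asked how loss of Fmr1, whose product FMRP binds mRNA and represses translation, and loss of Rps6kb1, which encodes the ribosomal protein S6 kinase S6K1, alter translation in the cortex. The groups were wild-type mice (WT), mice lacking Fmr1 (labelled FXS, a model of fragile X syndrome), mice lacking Rps6kb1 (labelled S6K1) and mice lacking both genes (labelled DKO). Every animal was between postnatal days 29 and 34 at dissection. The alleles, the strain and the sex are not given in the sources used here, nor is any agent named. Sequencing of polyadenylated mRNA gave 16 libraries, 4 of each genotype. Ribosome profiling, which sequences the mRNA fragments that ribosomes shield from nuclease (footprints), gave 15 libraries, 5 from FXS mice, 4 from WT, 3 from S6K1 and 3 from DKO.

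GABA-A receptors are chloride channels opened by GABA, the main inhibitory transmitter of the cortex, and each channel is a pentamer that usually joins alpha and beta subunits with a gamma or a delta subunit. Beta subunits contribute to the GABA binding site, and the kind of alpha subunit sets the affinity for GABA and the response to benzodiazepines. Receptors with a gamma subunit gather at synapses, while those with delta, often beside alpha 4, lie outside the synapse and carry tonic inhibition. Alpha 5 is also largely extrasynaptic, and alpha 2 is prominent at synapses on the axon initial segment. Lower GABA-A subunit expression, delta included, has been described before in Fmr1-deficient mice.

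Total counts per library ran from 12.1 to 17.3 M for mRNA and from 16.6 to 34.9 M for footprints. A member had between 174 and 2271 mRNA counts per library and between 512 and 10281 footprint counts. The log2 fold change of Fmr1 mRNA from WT was -2.05 ± 0.12 (SE) in FXS and -2.15 ± 0.12 in DKO, and that of Rps6kb1 footprints was -1.63 ± 0.14 in S6K1 and -1.44 ± 0.13 in DKO, each called, in the direction of the labels. Markers of the labelled tissue were present: none of 11 cortical excitatory neuron genes and none of 13 interneuron genes was at 0 in any library. Batch numbers come from the labels. Each mRNA batch (5 to 8) held every genotype once, whereas footprint batch 1 consisted of 1 DKO and 1 S6K1 library, batch 2 lacked DKO and batch 4 lacked S6K1. Footprints of 4 members (Gabra3, Gabra4, Gabrb1 and Gabrb2) were highest in the 2 libraries of batch 1, so raw means of DKO and S6K1 stand above what the fit with a batch term gives. Nothing in the labels says that libraries of a genotype came from separate animals, in which case p-values measure only the spread between libraries.

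In the mouse genome (GRCm38.p6, the patch release of mm10) 3 of the members lie together on chromosome 5. Gabra2 spans chr5:70958392-71095849, Gabra4 chr5:71569734-71658308 and Gabrb1 chr5:71657921-72149572. With the gamma subunit gene Gabrg1 they form a cluster of 1.40 Mb. Gabra4 and Gabrb1 are transcribed away from each other and overlap by 388 bases at their starts. Whether counting used strand is not given in the sources used here, so reads from this overlap cannot be assigned to 1 gene. Gabra5 (chr7:57407669-57591016) lies on chromosome 7 and Gabrb2 (chr11:42419515-42632591) on chromosome 11. Gabrd (chr4:155384979-155398098) is the shortest of the 7 genes and has no other member on its chromosome. Gabra3 (chrX:72432676-72656919) is X-linked, 3.71 Mb from Fmr1.

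A gene was called when its adjusted p was under 0.05 (edgeR quasi-likelihood test, Benjamini-Hochberg adjustment over all genes tested). Of the 7 members and 6 genotype contrasts in 3 measures, 1 test passed: Gabra3 mRNA was lower in DKO than in WT. That contrast called 5.23% of the 14215 genes tested in mRNA, 2.06% as lower, so the count of 1 among 7 is no result about the family. Against WT, no member was called in FXS mRNA (0.155% of all genes called) or in S6K1 mRNA (0.0211%). In footprints no member was called in FXS (0.165% of 13953 genes), in S6K1 (0.00717%) or in DKO (0.366%). Translational efficiency (TE) is the footprint difference minus the mRNA difference in 1 model of both assays. For TE no member was called in FXS (0.0952% of 13654 genes), in S6K1 (0.0293%) or in DKO (4.85%). Between mutants, no member was called for DKO against FXS (0.0281% in mRNA, 0.0143% in footprints, 0.0146% in TE) or for DKO against S6K1 (0.387%, 0.00717% and 0.00732%). The interaction, which asks whether loss of Fmr1 acts differently without S6K1, called no member and no gene at all in any measure (0% each). At an unadjusted p under 0.05 it held 497 genes in mRNA, 428 in footprints and 565 in TE, with 0, 1 and 1 of the members among them, and DESeq2 called 0, 5 and 2 genes.

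**Figure D1:**
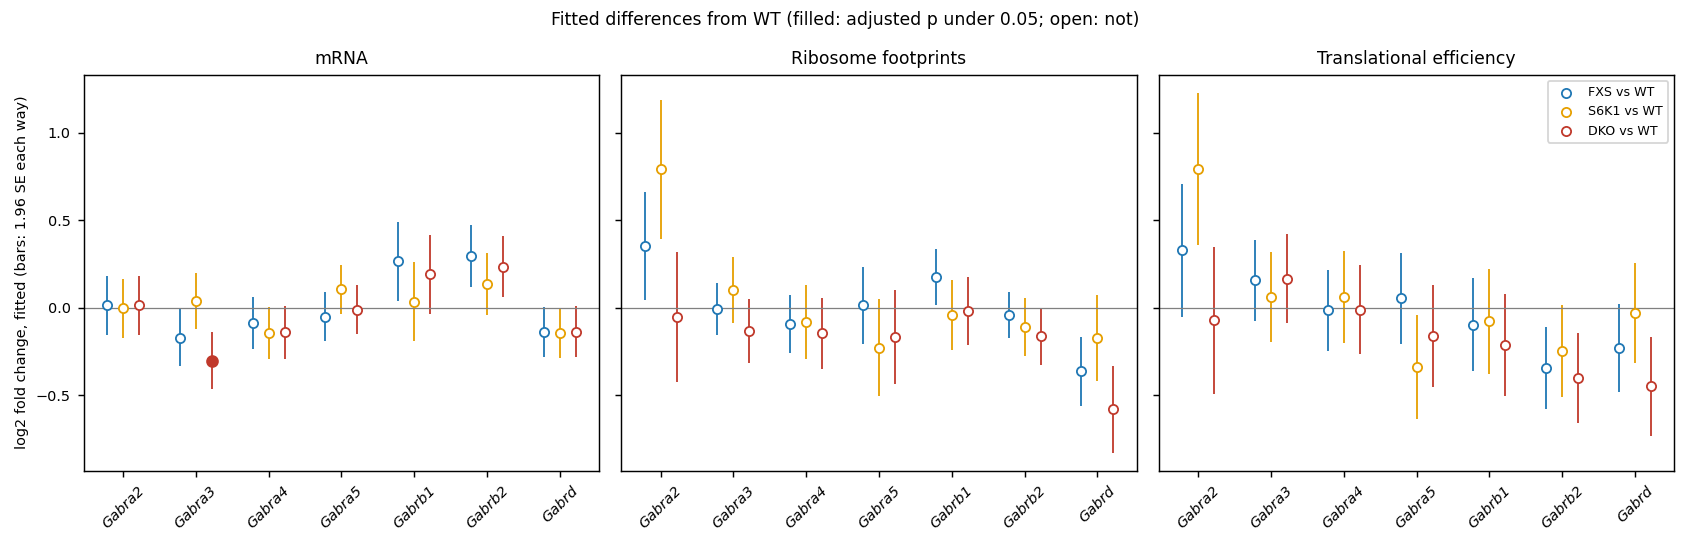
Fitted log2 fold changes of the 7 genes against WT in mRNA (left), footprints (middle) and translational efficiency (right) for FXS, S6K1 and DKO. Bars are 95% intervals, and the filled point, Gabra3 mRNA in DKO at -0.30, is the call among them. The widest bars of the middle and right panels are those of Gabra2, and the Gabrd footprint value in DKO (-0.58) is the lowest point of the middle panel.

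The alpha subunit genes come first. Gabra3 encodes alpha 3, a subunit abundant in deep cortical layers and in the immature brain. Its mRNA (counts per 1 M after TMM scaling, CPM, in batches 5 to 8 in that order) was 124, 141, 178 and 147 in the WT libraries. In FXS it was 106, 157, 129.9 and 132, in S6K1 147, 156, 155 and 145, and in DKO 113, 126, 117 and 120.0. The 4 DKO libraries lay close together and below S6K1 without overlap, and below WT but for the highest DKO library, which passed the lowest WT library. Within each of the 4 batches the DKO library was below the WT library, by 0.13 to 0.60 on the log2 scale, and below the S6K1 library, by 0.27 to 0.40.

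Gabra3 mRNA in DKO was lower than in WT by 0.30 ± 0.082 (SE) on the log2 scale, a fold of 0.811 (95% interval of the log2 value -0.46 to -0.14, adjusted p = 0.0357, edgeR). Group means (SD, n = 4) were 119 ± 5.16 CPM in DKO, 148 ± 22.4 in WT, 151 ± 5.29 in S6K1 and 131 ± 20.7 in FXS. Against S6K1 the difference was -0.34 ± 0.082 (adjusted p = 0.0554, edgeR), and against FXS -0.13 ± 0.082 (adjusted p = 0.615, edgeR). All DKO libraries lay below all S6K1 libraries for 1 member, Gabra3, and 1.61% of all genes did so. The call was lost in several alternatives: without batch as a term its adjusted p was 0.362, and leaving out WT replicate 2, 3 or 4, or DKO replicate 2, 3 or 4, gave 0.0504 to 0.204, the highest without WT replicate 3 (batch 7, 178 CPM), when the log2 difference was -0.21. FXS alone stood 0.17 ± 0.082 below WT (adjusted p = 0.389, edgeR), lower in 3 of 4 batches, and S6K1 alone differed by 0.04 ± 0.082 (95% interval -0.12 to 0.20). Whether loss of Fmr1 moved Gabra3 mRNA differently with and without S6K1 was not resolved, with an interaction of -0.17 (95% interval -0.40 to 0.06). Markers of cortical excitatory neurons moved in the same DKO comparison: 3 of 11 were called higher in mRNA and none lower, where 5.23% of all genes were called. The summed level of these markers ran from 2292 to 3650 CPM in DKO and from 2092 to 2961 in WT. Their part in the Gabra3 value was not tested. In bulk cortex, fewer cells of a type and less RNA per cell cannot be told apart.

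Footprints of Gabra3 were not called in any contrast. They were 79.7, 96.2, 86.8 and 82.9 CPM in WT (batches 2, 3, 4 and 4), 82.1, 89.4, 106, 81.5 and 73.4 in FXS (batches 2, 2, 3, 4 and 4), 148, 100.4 and 96.1 in S6K1 (batches 1, 2 and 3) and 128, 86.4 and 75.3 in DKO (batches 1, 3 and 4). The highest library of S6K1 and of DKO was that of batch 1. DKO overlapped WT, FXS and S6K1 over all libraries, but lay below S6K1 in both batches that held the 2 genotypes, by 0.15 and 0.21 on the log2 scale. The fitted difference of DKO from WT was -0.13 ± 0.094 (95% interval -0.32 to 0.05) and the values within the 2 batches that held both genotypes were -0.17 and -0.15. Against S6K1 the fit gave -0.23 ± 0.096 (adjusted p = 0.534, edgeR). TE of Gabra3 in DKO stood at 0.17 ± 0.13 (adjusted p = 0.440, edgeR).

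Since Gabra3 is the member with a called mRNA difference, the 250 bases before its first annotated start are shown, from RefSeq (GRCm38.p6, chrX:72656920-72657169, minus strand, 5′ to 3′). Capitals mark the match to TATAAA, which lies on the strand opposite to the gene and so reads TTTATA.
Gabra3 promoter: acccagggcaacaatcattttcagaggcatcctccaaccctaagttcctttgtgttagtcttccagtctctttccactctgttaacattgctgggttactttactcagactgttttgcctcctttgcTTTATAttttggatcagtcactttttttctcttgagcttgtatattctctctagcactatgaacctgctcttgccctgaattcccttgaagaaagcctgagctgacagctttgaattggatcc
Both strands of the 250 bases before 32851 annotated starts were searched for 4 motifs. TATAAA was found in 12.4% of them, the GC box GGGCGG in 32.7%, the E box CACGTG in 6.02% and the cAMP response element TGACGTCA in 1.55%; none of the 4 motifs holds another. Of the 6 members matched in the table, Gabra3 and Gabrb2 held TATAAA, while Gabra2, Gabra4 (with 2 matches) and Gabrb2 held GGGCGG. The Gabra5 and Gabrb1 windows held none of the 4 motifs. The windows of Gabra5 (chr7:57510060-57510309) and Gabrb2 (chr11:42420190-42420439) lie inside the gene spans given above, and so do not precede the whole gene. The Gabra3 window is also the poorest of the 6 in G and C, at 42.4% against 56.4% to 70.0% in the others and a median of 52.4% over all windows.

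Because Gabra3 and Fmr1 are both X-linked, the genes between them were read too. Of the 10 tested genes in that interval, 1 was called higher and none lower in DKO mRNA, where 5.23% of all genes were called. In FXS, 1 was called higher and none lower in mRNA (0.155% of all genes called) and likewise in footprints (0.165%). None was called in S6K1, in DKO footprints or in TE. The median log2 difference of these genes from WT in mRNA was 0.15 in DKO and 0.08 in FXS. Whether the position near Fmr1 had a part in the Gabra3 value was not tested.

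Gabra2 encodes alpha 2. Its mRNA levels were close together in the 4 genotypes: 78.7, 119.5, 124 and 114 CPM in WT, 72.9, 129, 126 and 117 in FXS, 62.6, 117, 120.1 and 146 in S6K1 and 80.7, 125, 109 and 127 in DKO, each in batches 5 to 8. The batch 5 library was the lowest of every genotype, and the groups overlapped throughout. The fitted difference from WT was 0.01 in FXS and in DKO and -0.0035 in S6K1, each with an SE of 0.086, and the DKO interval ran from -0.15 to 0.18.

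Its footprints, by contrast, spread more than those of any other member, from 49.2 to 272 CPM. They were 132, 49.2, 104 and 113 in WT (batches 2, 3, 4 and 4), 151, 179, 79.8, 121 and 122 in FXS (batches 2, 2, 3, 4 and 4), 272, 170.4 and 96.3 in S6K1 (batches 1, 2 and 3) and 91.7, 64.9 and 111 in DKO (batches 1, 3 and 4). The batch 3 library was the lowest of each genotype, and within every batch that held S6K1 and WT or DKO, the S6K1 library was the higher. S6K1 exceeded WT by 0.96 and 0.36 on the log2 scale in the 2 batches that held both, and DKO differed from S6K1 by -0.56 and -1.57. FXS exceeded WT in 3 of 3 batches, by 0.17 to 0.69.

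In the fit, Gabra2 footprints in S6K1 stood 0.79 ± 0.20 above WT (fold 1.73, 95% interval of the log2 value 0.39 to 1.19) and had an adjusted p of 0.299 (edgeR), at rank 92 of 13953 genes by p. DKO differed by -0.84 ± 0.20 from S6K1 (adjusted p = 0.396, edgeR) and by -0.05 ± 0.19 from WT. The interaction was -1.20 ± 0.26, at rank 8 of 13953 genes by p, and its adjusted p was 0.961 (edgeR). DESeq2, which estimates the spread of each gene differently, called these 3 differences, with adjusted p-values of 0.0133, 0.0105 and 0.00203. No other setting called any of them, and leaving out single libraries moved the S6K1 difference from 0.56 to 1.11. In TE, S6K1 stood 0.79 ± 0.22 above WT (adjusted p = 0.426, edgeR). Because alpha 2 is abundant in striatum, the striatal markers are given beside it: their summed footprints ran from 203 to 872 CPM in WT, 278 to 827 in S6K1, 198 to 679.5 in FXS and 159.6 to 346 in DKO. None of these 10 genes was called in footprints or at 0 in any library. The S6K1 library highest in Gabra2 (272 CPM) had 278 CPM of striatal markers and the DKO library of the same batch 159.6. Footprints of Gabrq (theta subunit), a gene better known from hypothalamus and brainstem, were highest in the same 3 libraries as those of Gabra2: 8.69 CPM in S6K1 replicate 1, 6.19 in S6K1 replicate 2 and 4.48 in FXS replicate 2, against 0.919 to 3.08 in the other 12. Those of Gabre (epsilon subunit) were 3.34, 2.20 and 1.61 CPM in these 3 libraries, 1.92 in WT replicate 1 and at most 0.953 in the rest. Their interaction values were -1.56 ± 0.64 and -1.58 ± 0.73, neither called. Olfactory bulb markers (5 genes, none called) had median log2 footprint differences from WT of 3.20 in S6K1, 3.12 in DKO and 0.88 in FXS. Their summed footprints ran from 15.8 to 150 CPM in S6K1 and from 7.23 to 41.3 in WT. In DKO they ran from 20.5 to 104 and in FXS from 6.47 to 87.6. The part of the source cells of Gabrq and Gabre, of striatal cells or of olfactory bulb cells in the Gabra2 values was not tested.

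The Gabra2 window, whose part in the Gabra2 levels was not tested, is shown as a description (RefSeq, GRCm38.p6, chr5:71095850-71096099, minus strand, 5′ to 3′, GGGCGG in capitals). It has 70.0% G and C.
Gabra2 promoter: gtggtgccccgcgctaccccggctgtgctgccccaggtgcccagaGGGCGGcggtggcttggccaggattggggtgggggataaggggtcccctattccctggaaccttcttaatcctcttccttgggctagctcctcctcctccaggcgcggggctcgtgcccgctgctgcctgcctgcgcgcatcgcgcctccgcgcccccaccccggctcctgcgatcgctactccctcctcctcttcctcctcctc

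**Figure D2:**
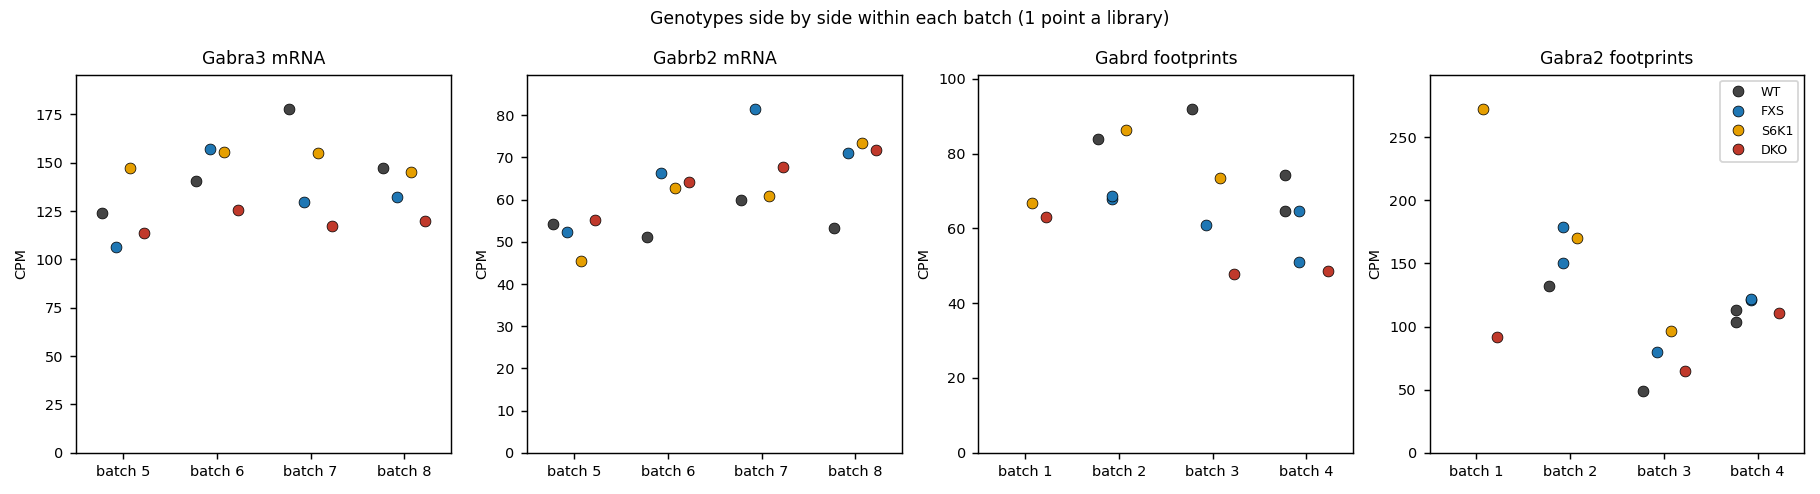
CPM of 1 library per point by batch and genotype, for Gabra3 mRNA, Gabrb2 mRNA, Gabrd footprints and Gabra2 footprints, with axes from 0. DKO lies under WT in all 4 batches for Gabra3 mRNA and in both shared batches for Gabrd footprints, while the level of Gabra2 footprints changes with batch, 49.2 to 96.3 in batch 3.

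Gabra4 encodes alpha 4, the usual partner of delta. Its mRNA averaged 131 ± 15.1 CPM (SD, n = 4) in WT, 119 ± 11.9 in S6K1, 123 ± 8.63 in FXS and 118 ± 9.05 in DKO, with overlap between all groups. The fitted differences were -0.09 ± 0.077 in FXS, -0.14 ± 0.077 in S6K1 and -0.14 ± 0.077 in DKO, with adjusted p-values of 0.681, 0.702 and 0.291 (edgeR). Footprints ran from 49.4 to 89.0 CPM, highest in the 2 libraries of batch 1, and the fitted values were -0.09, -0.08 and -0.15 in the same order, none called. TE differed by -0.01 ± 0.13 in DKO (95% interval -0.27 to 0.25).

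Gabra5 encodes alpha 5. Its mRNA averaged 104 ± 16.3 CPM (SD, n = 4) in WT, 112 ± 13.3 in S6K1, 100.1 ± 10.05 in FXS and 103 ± 12.4 in DKO. The fitted differences from WT were 0.11 ± 0.072 in S6K1, -0.05 ± 0.072 in FXS and -0.01 ± 0.072 in DKO. The approximate 95% interval of the DKO value ran from -0.15 to 0.13. Mean footprint levels (± SD) were 29.7 ± 4.87 CPM in DKO (n = 3), 30.5 ± 7.07 in WT (n = 4), 31.4 ± 5.05 in FXS (n = 5) and 30.8 ± 5.11 in S6K1 (n = 3). TE of Gabra5 in S6K1 stood at -0.34 ± 0.15 (adjusted p = 0.634, edgeR).

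**Figure D3:**
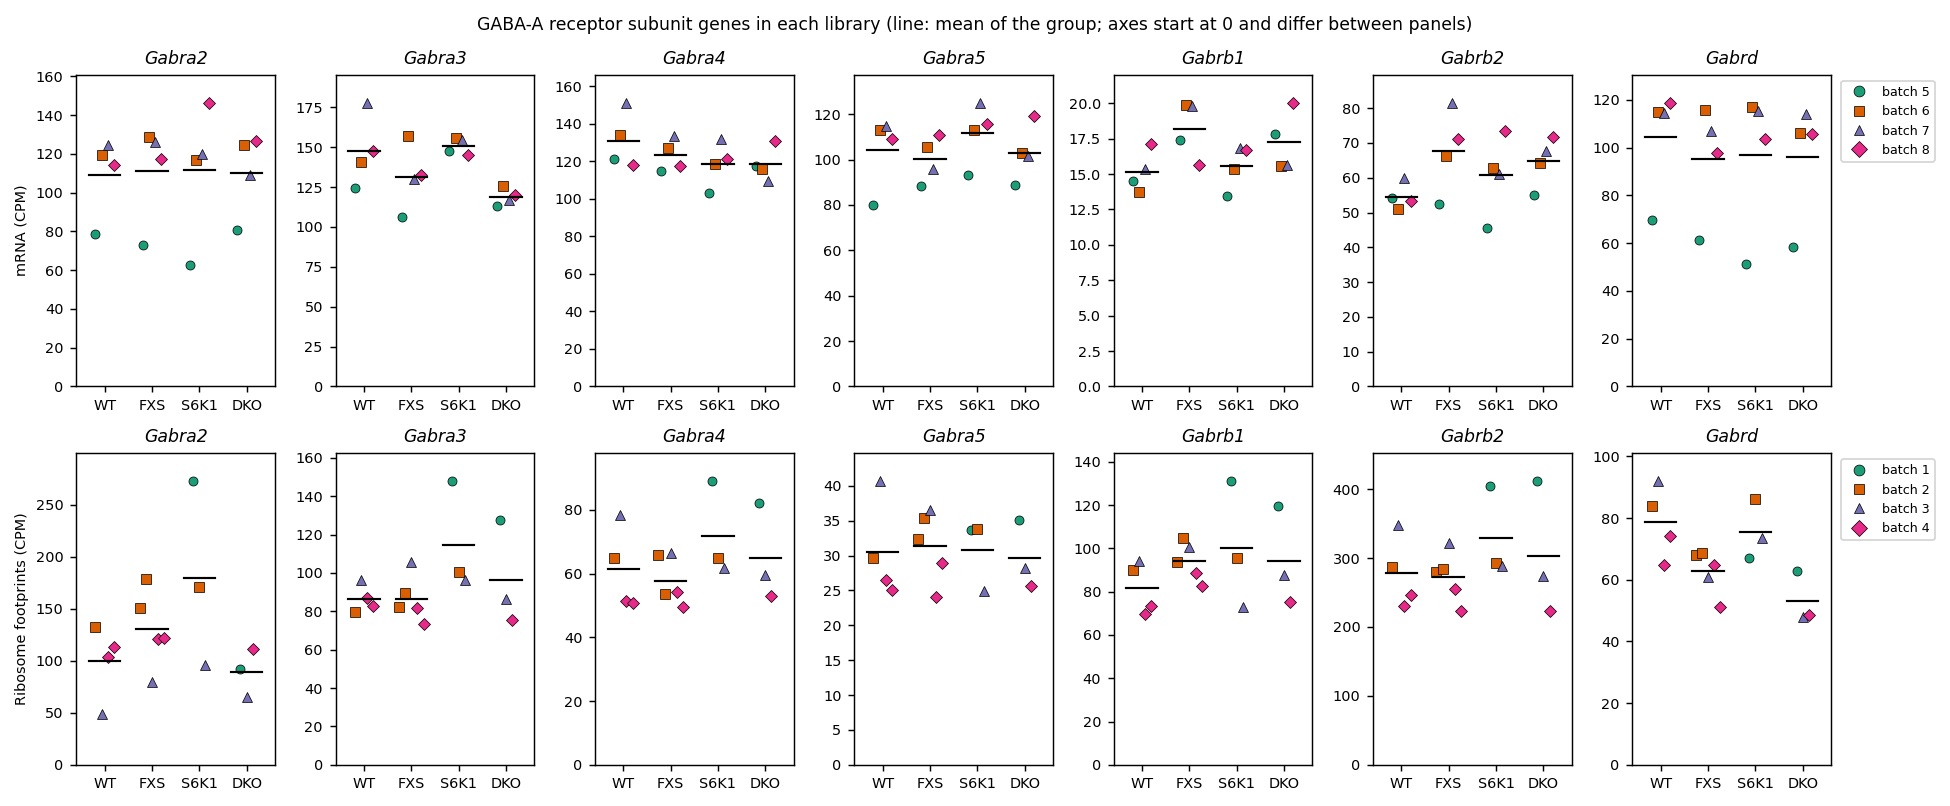
CPM of the 7 genes in every library, mRNA above and footprints below, by genotype, with colour and symbol for the batch and a line at the group mean. Batch 5 is low in mRNA for Gabra2, Gabra5 and Gabrd in every genotype, batch 1 is high in footprints for Gabra3, Gabra4, Gabrb1 and Gabrb2, and the 3 DKO libraries lie below all WT libraries for Gabrd footprints.

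Both beta subunit genes had more mRNA in FXS and DKO than in WT by the fit, short of the threshold. Gabrb2 encodes beta 2, an abundant beta subunit of the adult brain. Its mRNA was 54.2, 51.1, 59.8 and 53.3 CPM in WT (batches 5 to 8), 52.3, 66.3, 81.5 and 71.0 in FXS, 45.6, 62.8, 61.0 and 73.5 in S6K1 and 55.1, 64.2, 67.6 and 71.8 in DKO. In batch 5 the WT library was second highest of 4, and in batches 6 to 8 it was the lowest. DKO exceeded WT in 4 of 4 batches, by 0.02 to 0.43 on the log2 scale, and FXS in 3 of 4. The fitted difference was 0.29 ± 0.090 in FXS (adjusted p = 0.168), 0.23 ± 0.090 in DKO (adjusted p = 0.124) and 0.14 ± 0.090 in S6K1 (adjusted p = 0.772), all by edgeR. The FXS difference was called when WT and FXS alone were fitted (adjusted p = 0.0371), and the DKO difference without WT replicate 1, of batch 5 (0.35, adjusted p = 0.0444).

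Gabrb2 footprints were not above WT by the fit. They were 288, 348, 231 and 246 CPM in WT (batches 2, 3, 4 and 4), 279, 284, 322, 255 and 223 in FXS (batches 2, 2, 3, 4 and 4), 404, 293 and 289 in S6K1 (batches 1, 2 and 3) and 412, 274 and 224 in DKO (batches 1, 3 and 4). The 2 libraries of batch 1 were far above all others, and in batches 3 and 4 DKO lay below WT, by 0.35 and 0.09. The fit gave -0.04 ± 0.067 in FXS, -0.11 ± 0.084 in S6K1 and -0.16 ± 0.082 in DKO, none called. TE was lower than in WT in all 3 mutants by the fit, at -0.34 ± 0.12 in FXS (adjusted p = 0.235), -0.25 ± 0.13 in S6K1 (adjusted p = 0.718) and -0.40 ± 0.13 in DKO (adjusted p = 0.0694, edgeR). The DKO value was called by DESeq2 (adjusted p = 0.0454), without mRNA batch 5 (-0.48, adjusted p = 0.0424) and without WT mRNA replicate 1 (-0.52, adjusted p = 0.0276). In the authors' deposited table for TE the DKO value was -0.40 with an adjusted p of 0.249.

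Gabrb1 encodes beta 1 and had the fewest mRNA counts of the 7, 174 to 337 per library. Its mRNA was 14.5, 13.7, 15.3 and 17.1 CPM in WT (batches 5 to 8), 17.4, 19.9, 19.8 and 15.6 in FXS, 13.5, 15.3, 16.8 and 16.7 in S6K1 and 17.8, 15.6, 15.7 and 20.02 in DKO. FXS was above WT in 3 of 4 batches and DKO in 4 of 4, and the ranges overlapped. The fitted difference was 0.26 ± 0.11 in FXS (adjusted p = 0.334, edgeR), 0.19 ± 0.11 in DKO and 0.04 ± 0.12 in S6K1. Footprints were above WT in FXS in 3 of 3 batches, by 0.10 to 0.26, with a fitted 0.18 ± 0.081 (adjusted p = 0.492, edgeR). In DKO they differed by -0.02 ± 0.098 (95% interval -0.21 to 0.17).

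Gabrd encodes delta, the subunit of extrasynaptic receptors. Its footprints were 83.9, 91.9, 64.6 and 74.3 CPM in WT (batches 2, 3, 4 and 4), 67.9, 68.6, 61.0, 64.6 and 51.1 in FXS (batches 2, 2, 3, 4 and 4), 66.9, 86.2 and 73.5 in S6K1 (batches 1, 2 and 3) and 63.0, 47.8 and 48.6 in DKO (batches 1, 3 and 4). All 3 DKO libraries lay below all WT and all S6K1 libraries, and FXS lay between, overlapping both WT and DKO. No other member's footprints separated any of these pairs of groups. Over all genes, the DKO libraries lay wholly below WT for 7.22% and wholly below S6K1 for 4.86%. Within batches DKO was lower than WT by 0.51 and 0.94 on the log2 scale (2 of 2 batches), and FXS was lower than WT by 0.27 to 0.59 (3 of 3 batches).

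The fitted Gabrd footprint difference from WT was -0.58 ± 0.13 in DKO (fold 0.668, 95% interval of the log2 value -0.83 to -0.33), rank 81 of 13953 genes by p, and its adjusted p was 0.0579 (edgeR), so it narrowly failed the correction. In FXS it was -0.36 ± 0.10 (adjusted p = 0.221, edgeR) and in S6K1 -0.17 ± 0.13 (adjusted p = 0.748, edgeR). DKO differed from FXS by -0.22 ± 0.12 (adjusted p = 0.776, edgeR) and from S6K1 by -0.41 ± 0.13 (adjusted p = 0.502, edgeR), and the interaction was -0.05 (95% interval -0.37 to 0.28). DESeq2 called the DKO difference (adjusted p = 0.00431), and in the authors' deposited table for footprints it was -0.59 with an adjusted p of 0.00292. Leaving out single libraries gave edgeR values from -0.66 to -0.44 with adjusted p-values from 0.0488 to 0.391. The FXS difference had an adjusted p of 0.0668 in the authors' deposited table.

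Gabrd mRNA differences from WT were smaller, and none was called. The mRNA was 69.6, 115, 114 and 119 CPM in WT (batches 5 to 8), 61.3, 116, 107 and 97.6 in FXS, 51.3, 117, 115 and 104 in S6K1 and 58.4, 106, 114 and 106 in DKO. The batch 5 library was the lowest of every genotype, and all groups overlapped. The 3 mutants stood at -0.14, -0.15 and -0.14 (SE 0.074) from WT in FXS, S6K1 and DKO, with adjusted p-values of 0.439, 0.693 and 0.282 (edgeR). TE in DKO was -0.45 ± 0.14 from WT (adjusted p = 0.0654, edgeR), in FXS -0.23 ± 0.13 (adjusted p = 0.435) and in S6K1 -0.03 ± 0.14 (adjusted p = 0.975). The DKO value was called by DESeq2 (adjusted p = 0.0458), without footprint batch 1 (-0.52, adjusted p = 0.0312), and without DKO replicate 1, WT replicate 1 or WT replicate 3 of the footprint libraries (adjusted p from 0.0287 to 0.0485). In the authors' deposited table the TE value was -0.45 with an adjusted p of 0.506. Oligodendrocyte genes moved in the same footprint comparisons: 5 of 10 were called lower in DKO (0.366% of all genes called) and 4 of 10 in FXS (0.165%). In DKO TE, 8 of these 10 genes were called lower (4.85% of all genes called). Their summed footprints ran from 2859 to 4194 CPM in WT, 2702 to 2975 in S6K1, 1825 to 2771 in FXS and 1927 to 2786 in DKO. None was at 0 in any library. Gabra6, a subunit typical of cerebellar granule cells, where delta is abundant too, had 224 footprint counts in WT replicate 4 (batch 4), 44 in WT replicate 1 (batch 2) and at most 11 in the other 13 libraries. Without WT replicate 4 the Gabrd footprint difference in DKO was -0.55 (adjusted p = 0.110, edgeR), and without WT replicate 1 it was -0.61 (adjusted p = 0.0488). The part of either cell type in the Gabrd values was not tested.

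In DKO footprints the fitted values of all 7 members were below 0 against WT, with a median of -0.15, where 52% of all genes were below 0 and their median was -0.01. All 7 were also below 0 against FXS, with a median of -0.18, where 51.8% of all genes were below 0 and their median was -0.01. These 2 comparisons share the DKO libraries, and none of the values was called. The 8 other GABA-A subunit genes tested in footprints had medians of -0.18 against WT and -0.17 against FXS. Inhibitory postsynapse genes had medians of -0.18 and -0.12 in that order, and cortical excitatory neuron genes -0.16 and 0.03. Against WT, genes for GABA synthesis, transport and breakdown had a median of 0.15, and receptor trafficking genes 0.06. The count of 7 did not hold in every alternative. Without batch as a term, Gabra3, Gabra4, Gabrb1 and Gabrb2 stood above 0 against WT (0.16, 0.08, 0.21 and 0.12) and also against FXS. With only WT and DKO fitted Gabra2 was at 0.23, and leaving out 1 library gave up to 0.14 for Gabra2 and up to 0.05 for Gabrb1 against WT. Within the 2 batches that held DKO and WT, Gabra2 footprints were higher in DKO in both, Gabra4 and Gabrb1 in 1, and the other 4 members in none. In DKO mRNA 3 of the 7 were above 0, and the median was -0.01 against 0.00 over all genes. In DKO TE 1 of 7 was above 0 (Gabra3) and the median was -0.16 against -0.02 over all genes. The other GABA-A subunit genes tested in TE had a median of -0.31. In FXS, 3 of 7 were above 0 in each of the 3 measures, with medians of -0.05, -0.01 and -0.01.

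Footprints per mRNA set the members far apart in every genotype, and this ratio does not depend on gene length. In WT the log2 ratio of mean CPM was 2.43 for Gabrb1 and 2.35 for Gabrb2, at percentiles 99.2 and 99.1 of all 13654 genes. It was -0.13 for Gabra2, -0.41 for Gabrd, -0.77 for Gabra3, -1.10 for Gabra4 and -1.77 for Gabra5, at percentiles 57.6, 47.8, 35.6, 27.2 and 12.7. The median of all genes was -0.35. The ratios of single WT libraries overlapped between Gabrb1 and Gabrb2, and between neighbours from Gabra2 down to Gabra5, but the lowest ratio of a beta gene (1.95) was above the highest of the other 5 (0.75). The 2 beta genes also stood at or above percentile 98.8 in FXS, S6K1 and DKO, and Gabra5 was lowest of the 7 in all 4 genotypes. These ratios are a description of levels, and no test was made between genes.

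**Figure D4:**
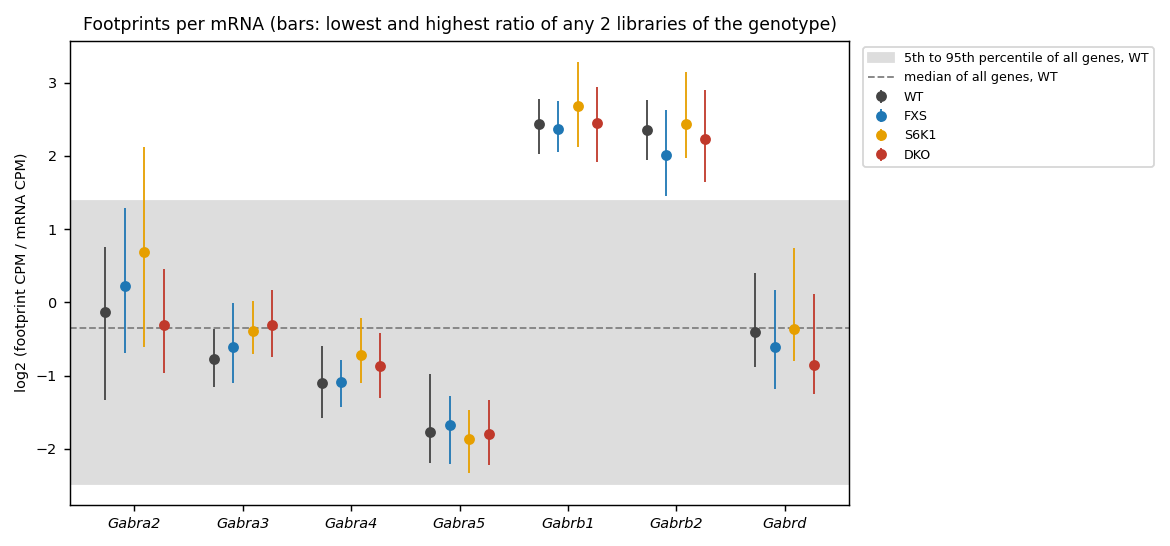
log2 of mean footprint CPM over mean mRNA CPM for the 7 genes in the 4 genotypes. Bars span the lowest and highest ratio that any footprint library and any mRNA library of the genotype give, and the grey band runs from the 5th to the 95th percentile of all genes in WT. Gabrb1 and Gabrb2 lie above the band (top at 1.39) in every genotype, and the points of the other 5 lie inside it.

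The other 12 subunit genes of the family were read alongside. In mRNA 8 passed the low-count filter, in footprints 8 and in both 7. The 4 genes for GABA-rho and pi subunits were at or near 0, with at most 14 counts in any library. In mRNA and in footprints none of the 12 was called in any contrast against WT. In TE 1 of the 7 tested was called, in DKO, where 4.85% of all genes were called. It was Gabrg1 (gamma 1), next to Gabra2 on chromosome 5, which rose by 0.67 ± 0.19 (adjusted p = 0.0403, edgeR). Its footprints were 15.96, 16.7, 10.3 and 12.4 CPM in WT and 26.7, 23.2 and 15.5 in DKO, while its mRNA averaged 22.2 ± 4.13 (SD, n = 4) in WT and 18.7 ± 3.81 in DKO. The Gabrg1 call was lost without batch as a term (0.90, adjusted p = 0.160) and in most fits that left out 1 library, the adjusted p then running from 0.0198 to 0.221 (edgeR, highest without DKO footprint replicate 2).

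Other genes of GABA signalling were read from lists. Of 9 genes for GABA synthesis, transport and breakdown, none was called in any measure against WT, and of 9 for chloride transport and its kinases none was called in mRNA or footprints. In DKO mRNA, where 5.23% of all genes were called, 1 of 6 GABA-B receptor genes rose, Gabbr2, a subunit of that receptor (0.27 ± 0.073), 1 of 14 tested inhibitory postsynapse genes rose, the adhesion molecule Nlgn2 (0.33 ± 0.086), and 1 of 14 receptor trafficking genes rose, the transport adaptor Trak2 (0.33 ± 0.077). None of these lists had a gene called lower in mRNA. In FXS footprints the synaptic adhesion gene Igsf9b fell by 0.89 ± 0.12 on the log2 scale (adjusted p = 0.0127, edgeR), and its TE by 0.99. TE in DKO, where 4.85% of all genes were called, fell for Gabbr2 (-0.61), Nlgn2 (-0.70), Nlgn3 (-0.44) and the chloride channel Clcn2 (-0.53), and rose for Oxsr1, a kinase that acts on chloride cotransporters (0.42). Of 13 interneuron genes 1 was called against WT, Pvalb, whose mRNA fell by 0.60 ± 0.097 in FXS and by 0.39 ± 0.097 in DKO on the log2 scale.

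As a description, each member's mRNA was also compared with that of every other tested gene over the 16 mRNA libraries, as log2 CPM centred within batch. The nearest gene by Pearson's r was Mia3 for Gabra2 (0.93), Senp6 for Gabra3 (0.92), Casd1 for Gabra4 (0.93), Cops4 for Gabra5 (0.88), Stox1 for Gabrb1 (0.94), Opcml for Gabrb2 (0.93) and Lnx1 for Gabrd (0.85). Each is the highest of the values over all genes tested, and the libraries share depth and genotype. Without centring within batch the nearest gene stayed the same for Gabra2 and Gabrb1 and changed for the other 5. Among the members themselves, r in mRNA ran from -0.48 (Gabra5 with Gabrb2) to 0.57 (Gabrb1 with Gabrb2), and in footprints the highest was Gabrb2 with Gabrd (0.75).

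The authors' deposited tables, which cover FXS and DKO against WT, gave values close to those above. Gabra3 mRNA in DKO was -0.31 with an adjusted p of 0.0116 there, and Gabrd footprints in DKO were the other member value under 0.05 in their 6 tables. For Gabrb2 mRNA in FXS they gave 0.30 with an adjusted p of 0.0744.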

How the data were processed

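The authors deposited raw counts per gene symbol and library, counted over coding sequence per the names of the deposited files. Cutadapt 2.0, Bowtie2, TopHat2, RSEM and mm10 stand in the submitters' processing notes, with no role or order. Counting settings, strand use and whether footprint and mRNA libraries share animals are not given in the sources used here. The authors' deposited comparison tables also hold a log2 fold change, its p-value and adjusted p-value, a test score and a mean signal of normalized counts (the last 2 not used here). No column of other samples was present.

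Counts were filtered on low values (filterByExpr), which left 14215 genes for mRNA, 13953 for footprints and 13654 for TE, scaled by TMM and tested in edgeR 4.0.16 (R 4.3.3; robust quasi-likelihood F-test, batch plus genotype, all genotypes together, Benjamini-Hochberg adjustment over all genes, threshold 0.05). TE was the footprint minus the mRNA contrast in 1 model of the 31 libraries, with batch nested in assay and TMM within each assay. Intervals named 95% are ±1.96 SE, with the SE taken from the log2 fold change and the F value. They are approximate, and narrower than the F-test implies. For Gabrb2 footprints in DKO against WT the interval was -0.33 to -0.0023, while the unadjusted p was 0.0653 (edgeR). The batch is given by the labels and served as the block: deviations from genotype means correlated at a median of 0.27 between mRNA libraries of 1 batch (23 of 24 pairs above 0.1) against -0.14 between batches, and at 0.30 (16 of 20 pairs) against -0.10 in footprints. No 2 libraries of a group agreed within sampling noise.

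The 7 members, the targeted genes, the other subunits, called genes of the lists and the nearest gene of each member are named. Members and lists were chosen with earlier results of these data known. Promoter windows came from a RefSeq table (GRCm38.p6), which matched 6 of 7 members. Alternatives were RLE factors, no filter, DESeq2 1.42.0, limma 3.58.1 (voom), no batch term, only the compared genotypes, a batch left out and each library left out. The fits were tested on simulated data. Levels are not compared between genes, since coding lengths were not used here. Values of some other subunit genes are not reported here.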

Additional observations from a re-analysis of the deposited data

Results flagged for a closer look

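In 3 of 42 groups of mRNA or footprint libraries, 1 library stood far from the others of its genotype relative to the group's range (Dixon's test), where chance gives about 1 in 20. Gabra5 mRNA in WT was 79.96 CPM in replicate 1 and 109 to 115 in the other 3. Gabrd mRNA in DKO was 58.4 CPM in replicate 1 and 106 to 114 in the other 3. Gabrd mRNA in WT was 69.6 CPM in replicate 1 and 114 to 119 in the other 3. All 3 libraries belong to batch 5, which was low for both genes in every genotype.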

How the results depend on the processing

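Of 2415 values of single members under the alternatives, 2390 kept their side of the threshold, and their direction where called. Another 7 lost the call, 18 gained one, and no called value reversed; 207 changed sign where neither value was called. With no replicate block (no batch term) the DKO mRNA comparison with WT called 0 members in place of 1 (edgeR), and 2 genes in all in place of 743. Fits that left out 1 library called 0 to 2 members there and 71 to 1093 genes in all. They called 0 to 1 members for DKO against S6K1 mRNA, where the count was 0 and DESeq2 called 1, and 0 to 1 for footprints and for TE of DKO against WT. With only the compared genotypes fitted, FXS mRNA held 1 called member (446 genes in all in place of 22). DESeq2 called 1 member in footprints for each of DKO against S6K1, DKO against WT (290 genes in all in place of 51), S6K1 against WT and the interaction, 1 in TE for DKO against S6K1 and 2 in TE for DKO against WT. TE of DKO against WT held 1 called member without mRNA batch 5 and 1 without footprint batch 1, the latter chosen after seeing the data. Over all alternatives, genes called in all ran from 2 to 446 for FXS mRNA, 2 to 290 for DKO footprints, 1 to 110 for FXS footprints (23 as reported), 2 to 1141 for DKO TE (662 as reported, 1141 by DESeq2) and 1 to 130 for FXS TE (13 as reported). For DKO against S6K1 mRNA (55 as reported) DESeq2 called 353 and the fit without a batch term 1, and contrasts not named here called at most 40. The cause of these shifts was not tested. Adjusted p-values that DESeq2 gives as missing were kept so. Levels per length of coding sequence were not run. For every member and mutant against WT the TE interval was wider than that of mRNA. Where a value was not called, the other values inside its interval were not excluded at this depth and number of libraries.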

Other observations

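Gabra6, the alpha 6 subunit gene typical of cerebellar granule cells, had 39 mRNA counts in WT replicate 1 (batch 5), 1 in DKO replicate 1 and 0 in the other 14 mRNA libraries. In footprints it reached 10.9 CPM in WT replicate 4 and 2.22 CPM in WT replicate 1, and at most 0.582 CPM elsewhere.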
